A study of Homo sapiens with 6 samples.

Results

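The genes described here are the transcripts of the oxygen-sensing pathway around VHL: VHL itself, the hypoxia-inducible factor (HIF) α subunits HIF1A, EPAS1 and HIF3A, their partner subunits ARNT and ARNT2, the oxygen sensors EGLN1, EGLN2 and HIF1AN, and the HIF inhibitor CITED2. They were taken by symbol from a list of 10 genes, and 9 of them had a row among the 30267 genes of the table. HIF3A was not analysed here. All 9 passed the filter on low values and were tested among 16554 genes.

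The HIF α subunits are made continuously and are controlled mainly by protein breakdown. When oxygen is present, the prolyl hydroxylases encoded by the EGLN genes mark the α subunit, VHL binds the mark as the receptor of a ubiquitin ligase, and the proteasome degrades it, while HIF1AN hydroxylates an asparagine that blocks binding of the coactivators EP300 and CREBBP. Without oxygen or without VHL the α subunit pairs with ARNT and activates genes of glycolysis, angiogenesis and cell survival, and loss of VHL is the founding lesion of most clear cell renal carcinomas. Transcript levels, which are measured here, do not report HIF protein.

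RNA was sequenced from SW839, an established renal cell carcinoma line, in 3 shRNF25 libraries, which carried a short hairpin RNA against the ubiquitin ligase RNF25, and 3 shControl libraries, which carried the pLKO vector. All libraries came from the same line grown in serum with penicillin and streptomycin under 5% CO2 at 37°C, without a labelled change of oxygen. The library names give 1 hairpin (shRNF25B) and 3 control names of differing form, and the shRNF25 plasmid stands in the treatment text of the control samples too, so the groups rest on titles and genotype labels. The study says in general terms that its experiments were run independently in triplicate, but the labels do not say whether these libraries came from separate cultures. If they did not, p-values measure only the spread between these libraries. An effect of the hairpin cannot be told apart from an unlabelled batch that follows the groups. The value used is the normalized count, the reads of a gene divided by a scaling factor of its library.

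Reads counted on genes ranged from 18647460 to 19943154 per library. RNF25 was at 694, 534 and 536 normalized counts in shControl libraries 1, 2 and 3 and at 214, 246 and 265 in shRNF25 libraries 1, 2 and 3, so it was lower in every shRNF25 library (log2 fold change -1.27, standard error (SE) 0.150, adjusted p = 0.000585 from limma). STK36 covers 11.2% of the exon bases of RNF25 on the opposite strand. Of the 6 tested markers of renal epithelium and renal carcinoma, only VIM passed the test, and it was higher (log2 fold change 1.31, adjusted p = 0.00805). The keratin KRT8 lay between 22206 and 31848 in shControl and between 35088 and 38009 in shRNF25, and KRT18 between 15768 and 18790 in all libraries. The renal factor PAX8 lay between 118 and 140.3 in shControl and between 76.7 and 110 in shRNF25. KRT8 and PAX8 thus did not overlap between groups but did not pass (adjusted p = 0.111 and 0.110, limma). The renal markers LHX1 and CDH6 reached only 4.62 and 13.0, and PAX2 and CDH16 were not analysed here. Of the immune markers, CD3E was at no more than 1.08 and PTPRC at no more than 14.6. CA9, a HIF target used as a marker of clear cell carcinoma, was at only 7.74, 12.3 and 50.7 in shControl and 8.20, 1.85 and 4.77 in shRNF25. The control libraries were less alike (Pearson r of log2 values across genes from 0.976 to 0.988) than the shRNF25 libraries (0.994).

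HIF binds DNA at the core ACGTG or GCGTG, and 4 promoters are printed to show how that core sits in genes of the pathway and in targets that fell. They are the RefSeq sequences on GRCh38.p14 from 250 bases before to 50 bases after the start, 5′ to 3′, with either core in capitals on whichever strand it lies (CACGT and CACGC are the same cores read on the other strand). EGLN1, a sensor, and CITED2, an inhibitor, are pathway genes that are themselves known HIF targets, whereas LDHA, the lactate dehydrogenase subunit, and BNIP3, a mitophagy receptor, are targets outside the feedback loop. BNIP3 was named for its large fall and LDHA was chosen after its values were seen, so both were picked by their values.
EGLN1, chr1:231422238-231422537, minus strand: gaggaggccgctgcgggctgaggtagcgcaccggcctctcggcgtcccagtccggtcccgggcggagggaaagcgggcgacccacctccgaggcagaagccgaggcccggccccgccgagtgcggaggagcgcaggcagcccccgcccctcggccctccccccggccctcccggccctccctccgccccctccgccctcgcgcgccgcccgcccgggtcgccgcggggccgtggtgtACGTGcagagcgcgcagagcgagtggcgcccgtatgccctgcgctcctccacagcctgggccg
CITED2, chr6:139374599-139374898, minus strand: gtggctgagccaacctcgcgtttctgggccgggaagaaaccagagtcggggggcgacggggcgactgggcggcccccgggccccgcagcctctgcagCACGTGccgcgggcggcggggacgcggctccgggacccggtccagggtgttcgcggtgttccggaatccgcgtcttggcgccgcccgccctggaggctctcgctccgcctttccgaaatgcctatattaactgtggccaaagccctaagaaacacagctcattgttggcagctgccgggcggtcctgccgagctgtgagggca
LDHA, chr11:18394313-18394612, plus strand: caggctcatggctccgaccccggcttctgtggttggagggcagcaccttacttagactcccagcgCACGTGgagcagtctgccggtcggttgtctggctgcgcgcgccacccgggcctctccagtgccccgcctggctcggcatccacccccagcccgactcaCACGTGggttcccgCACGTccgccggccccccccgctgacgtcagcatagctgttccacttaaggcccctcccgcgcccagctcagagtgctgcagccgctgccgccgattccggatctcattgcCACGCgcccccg
BNIP3, chr10:131981874-131982173, minus strand: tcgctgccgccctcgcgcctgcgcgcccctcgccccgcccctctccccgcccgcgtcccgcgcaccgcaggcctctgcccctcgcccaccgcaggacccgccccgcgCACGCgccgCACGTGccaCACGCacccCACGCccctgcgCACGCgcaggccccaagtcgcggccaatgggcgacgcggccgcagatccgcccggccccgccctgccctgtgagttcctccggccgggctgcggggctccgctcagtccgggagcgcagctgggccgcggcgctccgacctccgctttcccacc

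The EGLN1 window held 1 ACGTG and the CITED2 window 2, both from 1 palindromic CACGTG counted on each strand. The LDHA window held 5 ACGTG and 1 GCGTG, and the BNIP3 window 2 ACGTG and 4 GCGTG. Of the 10 listed genes, 8 had a promoter in the table, and ACGTG was found in 3 of them (EGLN1, EGLN2 and CITED2) and GCGTG in 3 (HIF1A, EPAS1 and HIF3A). Of 35116 promoters of the same length, 21.4% held ACGTG and 36.5% GCGTG. Among 28 HIF target genes, 22 had a promoter, of which 10 held ACGTG and 13 held GCGTG. A match is a description of the letters in this window and not a binding site. The RefSeq start of EGLN1 lies inside the longer GENCODE gene model.

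The pathway genes differed widely in level. Per kilobase of exon, the mean normalized count over the 6 libraries was 1922 for HIF1A (range 1430 to 2968) and 691 for EPAS1 (612 to 890), against 78.4 for the median gene. The α subunits were thus the most abundant of the 9 transcripts, and HIF1A stood above 98.0% of 15940 genes per kilobase. VHL followed at 263 (227 to 287), CITED2 at 238 (163 to 298) and ARNT at 152 (125 to 212). HIF1AN was at 95.4 (79.0 to 109) and EGLN1 at 51.8 (43.8 to 63.4), while EGLN2 at 13.1 (10.1 to 15.3) and ARNT2 at 11.9 (9.24 to 16.9) were the lowest. The ranges of VHL and CITED2, of CITED2 and ARNT, and of EGLN2 and ARNT2 overlapped, and those of the other neighbours in this order did not. The level of EGLN2 is uncertain, since 93.4% of its coding bases are shared on the same strand with the RAB4B-EGLN2 readthrough gene.

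**Figure D1:**
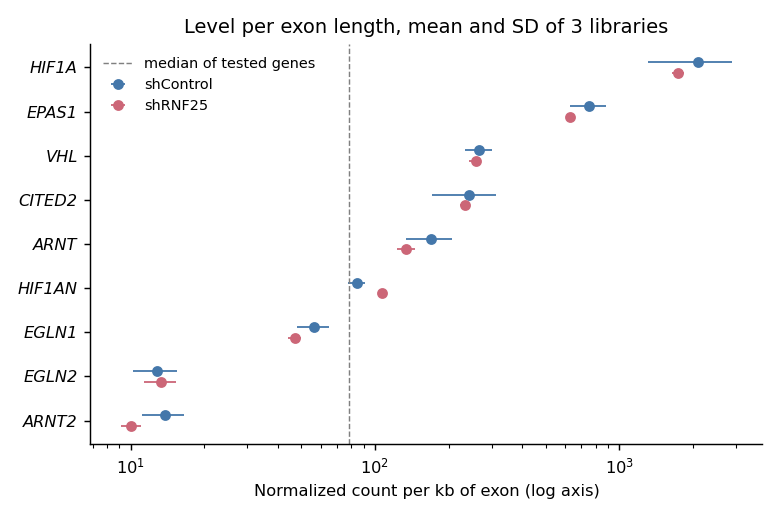
Normalized count per kilobase of exon (log axis) of the 9 genes, with points for the mean and bars for the SD of each group (n = 3) and a dashed line at the median of the tested genes. HIF1A and EPAS1 lie above the other 7 genes, and EGLN2 and ARNT2 lie lowest.

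After RNF25 knockdown, 0 of the 9 pathway transcripts were lower and 1, HIF1AN, was higher at an adjusted p-value below 0.05 (limma), against 10.8% of all 16554 tested genes lower and 10.5% higher. At an unadjusted p below 0.05 (limma) there were 2, HIF1AN and ARNT2, against 5853 of all 16554 tested genes. With a fold of at least 1.5 as well, none of the 9 passed in either direction, against 7.10% of all genes lower and 8.65% higher. edgeR and DESeq2 on the recovered reads also called 0 lower and only HIF1AN higher (adjusted p = 0.0351 and 0.0218). The log2 fold change, on the scale of log2(normalized count + 1), was below 0 for 6 genes and above 0 for 3. Of all genes, 51.2% were below 0. The median was -0.20, beside -0.01 over all genes. The libraries of the groups did not overlap for 1 lower gene, ARNT2, and 1 higher gene, HIF1AN, against 21.8% of all genes lower and 20.7% higher without overlap.

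**Figure D2:**
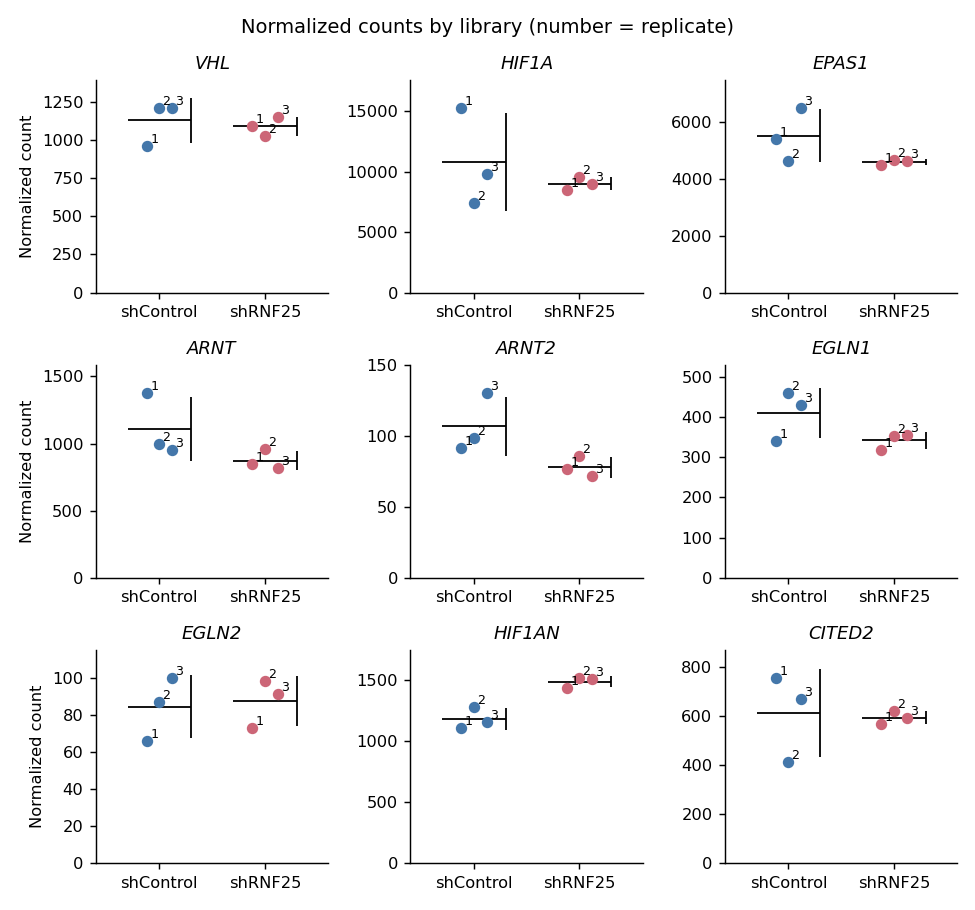
Normalized counts of the 9 genes in each library, shControl and shRNF25, with the group mean and SD (n = 3). Only ARNT2 and HIF1AN separate the groups, and the shControl points of HIF1A and CITED2 spread more widely than the shRNF25 points.

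VHL, the substrate receptor of the ligase, is a plus-strand gene of chromosome 3 (10141008 to 10152220, GRCh38, GENCODE 29). Its normalized count was 958, 1210 and 1211 in shControl and 1093, 1024 and 1147 in shRNF25. All shRNF25 values lay inside the range of the controls. The mean of 1088 ± 61.4 (SD, n = 3) was 96.6% of the control mean of 1126 ± 145 (SD, n = 3). The log2 fold change was -0.04 (SE 0.125, adjusted p = 0.835), and the 95% interval of the fold, 0.798 to 1.18, does not reach a change by 1.5-fold. Its sign turned under other scalings.

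HIF1A, on chromosome 14 from 61695513 to 61748259 on the plus strand, encodes HIF-1α, the more widely expressed α subunit. It was at 15289, 7365 and 9786 in shControl and at 8474, 9531 and 8956 in shRNF25. The 3 shRNF25 libraries were close together, whereas shControl 1 was 2.08 times shControl 2, and the groups overlapped. The means were 10813 ± 4061 and 8987 ± 529 (SD, n = 3 each), with a log2 fold change of -0.20 (SE 0.225, adjusted p = 0.556) and a 95% interval of the fold from 0.612 to 1.23. The antisense gene HIF1A-AS1 and HIF1A share 2.27% of the exon bases of HIF1A, on opposite strands. HIF1A-AS1 was at 0, 2.05 and 3.24 in shControl and at 6.38, 10.2 and 9.53 in shRNF25, higher without overlap but on at most 11 reads and not tested. HIF1A-AS3, an antisense transcript of the same locus, overlapped between groups, as HIF1A did (log2 fold change -0.25, adjusted p = 0.427).

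EPAS1, on chromosome 2 from 46293667 to 46386703 on the plus strand, encodes HIF-2α, the α subunit linked to growth of VHL-deficient renal carcinoma. It was at 5405, 4631 and 6496 in shControl and at 4468, 4666 and 4624 in shRNF25. One shRNF25 library lay just above the lowest control, so the groups overlapped. The mean was 4586 ± 105 against 5511 ± 937 (SD, n = 3 each), a log2 fold change of -0.25 (SE 0.131, adjusted p = 0.204). The ratio of EPAS1 to HIF1A was 0.353, 0.629 and 0.664 in shControl and 0.527, 0.490 and 0.516 in shRNF25. The balance of the α transcripts in shRNF25 fell inside the control range (two-sided exact permutation test, p = 1, with 0.1 the smallest p that 3 against 3 allow).

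ARNT, on chromosome 1 from 150809705 to 150876768 on the minus strand, encodes HIF-1β, the constitutive partner of both α subunits. It was at 1380, 998 and 949.8 in shControl and at 846, 958 and 817 in shRNF25. The shRNF25 libraries were low, with 1 of them above the lowest control. The log2 fold change was -0.33 (SE 0.154, adjusted p = 0.164). ARNT2, a paralog prominent in neural tissue, on chromosome 15 from 80404350 to 80597937 on the plus strand, was at 91.8, 98.5 and 131 in shControl and at 76.5, 85.9 and 71.5 in shRNF25. All 3 shRNF25 libraries were below all 3 controls. Its log2 fold change was -0.44 (SE 0.187), but the adjusted p of 0.129 did not pass and the exact permutation p was 0.1.

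Among the oxygen sensors, HIF1AN (chromosome 10, 100529072 to 100559998, plus strand) encodes the asparaginyl hydroxylase FIH. It was at 1102, 1279 and 1152 in shControl and at 1431, 1515 and 1508 in shRNF25. All 3 shRNF25 libraries were above all 3 controls. The mean was 1485 ± 47.0 against 1178 ± 91.5 (SD, n = 3 each), a fold of 1.26 and a log2 fold change of 0.34 (SE 0.105, 95% interval 0.10 to 0.57). The adjusted p of 0.0495 was just inside the threshold, and the call was lost under 7 of the 16 other settings tried, including each left-out shRNF25 library (adjusted p = 0.144 to 0.200) and shControl 3 (0.0738). NDUFB8 overlaps 2.33% of the exon bases of HIF1AN on the opposite strand.

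EGLN1 (chromosome 1, 231363751 to 231425044, minus strand) encodes PHD2, the main prolyl hydroxylase of HIF. It was at 342, 461 and 429.6 in shControl and at 318, 352 and 356 in shRNF25, with overlap through shControl 1. The log2 fold change was -0.25 (SE 0.144, adjusted p = 0.240), and without shControl 1 it was -0.38 with an adjusted p of 0.0161. EGLN2 (chromosome 19, 40798996 to 40808433, plus strand), which encodes PHD1, was at 66.3, 87.2 and 100.4 in shControl and at 72.9, 98.8 and 91.5 in shRNF25. Its groups overlapped on 60 to 107 reads per library (log2 fold change 0.06, SE 0.208, adjusted p = 0.864). The ratio of EGLN2 to EGLN1 was 0.194, 0.189 and 0.234 in shControl and 0.229, 0.281 and 0.257 in shRNF25, which overlapped as well (exact permutation p = 0.2).

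CITED2 (chromosome 6, 139371807 to 139374620, minus strand) competes with HIF for EP300 and CREBBP. It was at 756, 412 and 668 in shControl and at 568, 622 and 591 in shRNF25. Every shRNF25 value lay between the lowest and the highest control, which differed 1.83 times. The log2 fold change was 0.00 (SE 0.205, adjusted p = 0.998), with a 95% interval from -0.46 to 0.46.

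The spread of the controls moved with these values. All 9 genes had a larger SD of log2 values in shControl than in shRNF25, as did 83.2% of all tested genes, with medians over all genes of 0.260 and 0.0959. Relative to the other controls, shControl 1 was higher by 0.85 for HIF1A, 0.50 for ARNT and 0.53 for CITED2 and lower by 0.38 for EGLN1, 0.49 for EGLN2 and 0.34 for VHL on the log2 scale. In the same library the deviation of the longest genes by exon length exceeded that of the shortest genes by 0.265 on that scale. In the other controls the same difference was -0.147 and -0.124. The pathway genes did not all follow that order. CITED2, among the shortest genes (2535 exon bases), was higher. Among the longest genes (from 6059 exon bases), ARNT was higher, whereas EGLN1, EGLN2, ARNT2 (-0.30), HIF1AN (-0.14) and EPAS1 (-0.02) were lower. HIF1A and VHL lay between in length and moved in opposite directions. A part of exon length in these deviations was not tested. The part of shControl 1 in the results was not tested beyond leaving it out. That made 2 of the 9 genes lower, ARNT2 (log2 fold change -0.54, adjusted p = 0.0425) and EGLN1. Over all genes, 17.85% were lower and 16.01% higher without shControl 1, so more genes were called in general.

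**Figure D3:**
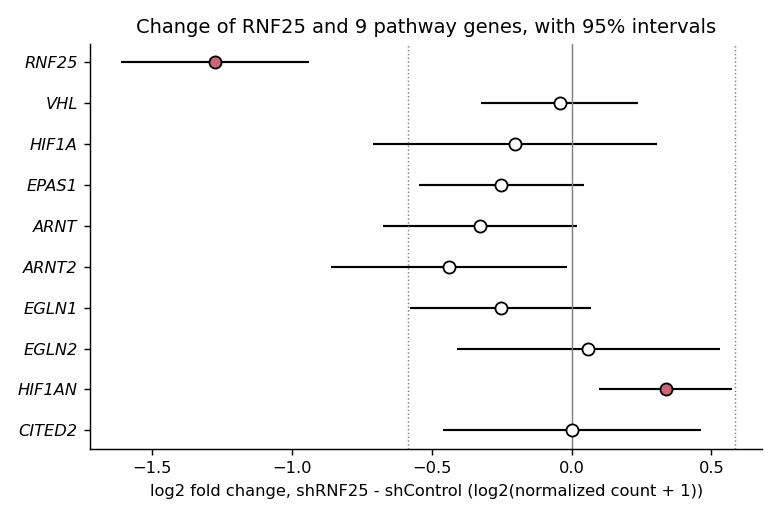
Log2 fold change (shRNF25 minus shControl) of RNF25 and the 9 pathway genes with 95% intervals from limma. Only the intervals of RNF25, ARNT2 and HIF1AN exclude 0, and the intervals of HIF1A, CITED2 and EGLN2 are the widest among the pathway genes.

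The proteins that act on or beside HIF were described by lists. In the list of the VHL ligase and HIF turnover, 2 of 15 genes were lower and 0 higher, with a median log2 fold change of -0.14. That is 13.3% lower, against 10.8% of all genes lower and 10.5% higher. The lower genes were WSB1, a ubiquitin ligase adaptor that targets VHL, and OS9, which binds HIF-1α and the prolyl hydroxylases. WSB1 was at 1013, 912 and 831 in shControl and at 600.5, 596 and 555 in shRNF25 (log2 fold change -0.65, SE 0.116, adjusted p = 0.00471), and OS9 fell by 0.35 (adjusted p = 0.0290). The groups did not overlap for either gene. The OS9 call was lost under 8 of the 16 other settings, among them quantile normalization (log2 fold change -0.20, adjusted p = 0.154) and a replicate block (0.0847). The ligase scaffold did not pass: ELOB, ELOC, CUL2 and RBX1 had log2 fold changes of 0.06, -0.06, -0.23 and 0.04 with adjusted p-values of 0.901, 0.708, 0.233 and 0.907, and the signs of ELOB, ELOC and RBX1 turned under other settings. In all, 6 of the 15 genes were lower without overlap, CUL2 among them, and 0 higher, against 21.8% and 20.7% of all genes. Leaving out single libraries gave 1 to 4 lower genes in this list, with 4 without shControl 1 and 4 without shControl 3. Of all genes, 17.85% and 11.76% were lower in these fits, in that order.

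In a list of other oxygen-dependent dioxygenases, 4 of 14 genes were lower (28.6%, against 10.8% of all genes) and 0 higher (against 10.5%). The list was chosen with earlier results of these data known, so its count is a description. EGLN3 stands in this list and in that of the HIF target genes. Whether other genes of the list are HIF targets was not examined, so the counts of these lists are not separate results. Without overlap between the groups, 6 were lower and 2 higher, against 21.8% of all genes lower and 20.7% higher. The 2 higher genes, P4HTM (log2 fold change 0.52, adjusted p = 0.0941) and KDM4A (0.37, adjusted p = 0.0952), did not pass. P4HTM passed without shControl 1 (0.0474) or shControl 3 (0.0428). PLOD2, a collagen lysyl hydroxylase, was at 5763, 4545 and 4835 in shControl and at 2014, 1978 and 1870 in shRNF25 (log2 fold change -1.36, adjusted p = 0.00012). P4HA1 and P4HA2, the catalytic subunits of collagen prolyl hydroxylase, fell by 1.30 and 0.99 on the log2 scale (adjusted p = 0.000168 and 0.00135), and the histone demethylase KDM3A fell by 0.96 (adjusted p = 0.000465). For these 4 genes the groups did not overlap. Without shControl 1, 8 of the 14 genes were lower, against 17.85% of all genes. EGLN3, the third prolyl hydroxylase of HIF and itself a HIF target, was at 171, 250.3 and 356 in shControl and at 165, 163 and 143 in shRNF25. The shRNF25 libraries of EGLN3 were all below the controls, and the log2 fold change of -0.66 had an adjusted p of 0.0796.

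Of the coactivators and the CITED family, 0 of 7 tested genes were lower and 1, CREBBP, was higher, against 10.8% and 10.5% of all genes. CREBBP, a histone acetyltransferase, was at 1990, 1306 and 1568 in shControl and at 2395, 2726 and 2455 in shRNF25 (log2 fold change 0.66, SE 0.153, adjusted p = 0.0156). That call was lost when any shRNF25 library was left out. Without shControl 1 and 3 in turn there were 3 and 2 higher genes in this list. In the same order, 16.01% and 12.59% of all genes were higher in these fits, so more genes were called higher in general. EP300, the paralog of CREBBP, had a log2 fold change of 0.34 (adjusted p = 0.138), and of 0.50 without shControl 1 (adjusted p = 0.00351). Among 8 tested genes of the wider family of bHLH-PAS factors, the DNA-binding family to which HIF belongs, 1 was lower and 1 higher, 12.5% in each direction, against 10.8% and 10.5% of all genes. SIM2 was at 2635, 2102 and 2685 in shControl and at 1448, 1519 and 1463 in shRNF25 (log2 fold change -0.74, adjusted p = 0.0031). NPAS3 was at 4.42, 4.10 and 7.55 in shControl and at 85.7, 71.1 and 61.0 in shRNF25. Its controls were all below the filter value of 10, so NPAS3 was tested only because its shRNF25 libraries were high, and its place as the higher gene is a description. The lower count was 2 without any 1 of the controls, against 17.85%, 8.39% and 11.76% of all genes without shControl 1, 2 and 3.

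The targets of HIF are the genes that its complexes switch on. Of 26 tested HIF target genes, 18 were lower (69.2%, against 10.8% of all genes) and 1 was higher (against 10.5%). With a fold of at least 1.5 there were 16 lower and 1 higher, against 7.10% and 8.65% of all genes. The median log2 fold change of the 26 was -0.84, beside -0.01 over all genes. Of the 26 genes, 23 were below 0, against 51.2% of all genes. The list was chosen with earlier results of these data known, so its count is a description. NDRG1, a stress-induced differentiation gene, was at 16694, 16321 and 24425 in shControl and at 3429, 2733 and 2295 in shRNF25 (log2 fold change -2.76, adjusted p = 3.48e-05). BNIP3 was at 3079, 2052 and 2349 in shControl and at 789, 847 and 777 in shRNF25 (log2 fold change -1.61, adjusted p = 0.000176). In both genes all shRNF25 libraries were below all controls.

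LDHA was at 39977, 40993 and 41327 in shControl and at 21401, 22096 and 22204 in shRNF25 (log2 fold change -0.90, adjusted p = 0.0005). DDIT4, an inhibitor of mTOR signaling, fell by 2.25 on the log2 scale (adjusted p = 0.000422). ANGPTL4, a lipoprotein lipase inhibitor, was at 449, 452 and 3550 in shControl and at 186, 161 and 169.7 in shRNF25. Its groups did not overlap, but shControl 3 was far above the other controls (log2 fold change -2.38, SE 0.663, adjusted p = 0.0324). Without any 1 of the shRNF25 libraries the adjusted p was 0.0971 to 0.104, with log2 fold changes from -2.435 to -2.33. Of all genes, 5.14% to 5.21% were lower in those fits. INHBB, a subunit of activin and inhibin, was the higher target, at 5814, 8140 and 7116 in shControl and at 11330, 11767 and 12164 in shRNF25 (log2 fold change 0.76, adjusted p = 0.0043).

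Fewer cells of a type and less RNA per cell cannot be told apart in bulk RNA, and some markers of other cell types differed between the groups. Of 4 endothelial markers, KDR rose (log2 fold change 1.78, adjusted p = 0.00116), whereas CDH5 was at 73.0, 103 and 199 in shControl and at 3.64, 8.31 and 5.72 in shRNF25, and the summed level of the 4 was 489 to 695 and 494 to 645 in the same order. Of 5 fibroblast markers, COL1A1 fell (log2 fold change -0.37, adjusted p = 0.0479, past the threshold in 5 of the 16 other settings), with a sum of 1107 to 1291 in shControl and 865 to 1012 in shRNF25, while DCN and COL1A2 stayed at or below 2.21 in every library. The 4 immune markers summed to 14.0 to 18.5 and 7.63 to 18.2. Only PTPRC among them was tested, and it did not pass (log2 fold change -0.38, adjusted p = 0.581, limma). The 9 renal markers summed to 38718 to 50291 and 53985 to 57836. The endothelial markers thus did not move in 1 direction. The fibroblast sum was lower without overlap, but most of it was COL1A1 (1090 to 1258 in shControl and 848 to 992 in shRNF25). The 2 tested fibroblast markers, COL1A1 and LUM (log2 fold change -0.55, adjusted p = 0.461, limma), were below 0. PDGFRB, which was not tested, had a higher mean in shRNF25. It was at 3.32, 9.23 and 3.24 in shControl and at 7.29, 6.46 and 10.5 in shRNF25. The part of these markers in the HIF target result was not tested.

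**Figure D4:**
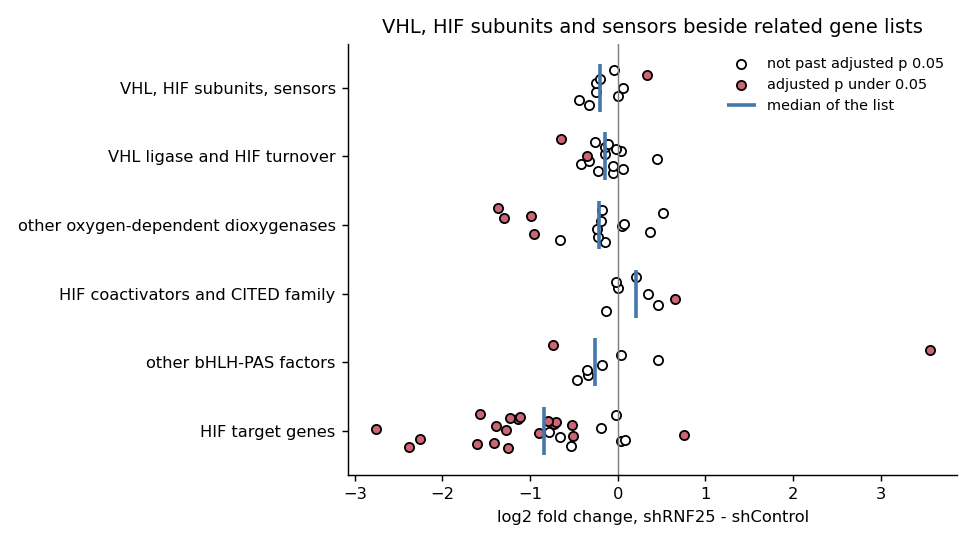
Log2 fold change (shRNF25 minus shControl) of each tested gene in the VHL and HIF genes and the related lists, with the list median. The 26 HIF target genes have a median of -0.84, and the 9 VHL, HIF subunit and sensor genes a median of -0.20.

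The genes whose pattern over the 6 libraries was most like that of 3 pathway genes are given as a description among 11338 genes with a mean of at least 100, over libraries that share their group and depth. For VHL they were ZNF511 (Pearson r 0.997), LSP1P5 (0.989) and SPG21 (0.987). For HIF1A they were ABHD13 (0.997), SP2 (0.994) and TFG (0.994), and for EPAS1 they were SPOCK1 (0.994), PPP2R2C (0.986) and TBX3 (0.980).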

How the data were processed

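Total RNA was extracted with TRIzol, ribosomal RNA was depleted and stranded libraries were sequenced. The submitters' processing notes name fastp, HISAT2, HTSeq and GRCh38, without versions. The annotation and strand setting of the counting are not given in the sources used here. The authors deposited normalized counts, a signal in which each count had been divided by the size factor of its library. Every value was a whole multiple of a smallest step in its library (tolerance 0.01 reads), so whole reads were recovered for 100% of values.

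Values were transformed as log2(normalized count + 1), and the 16554 genes with at least 10 in at least 3 libraries were compared with limma 3.58.1 (lmFit, eBayes with a trend) (R 4.3.3), with the group as sole term and Benjamini-Hochberg adjustment. A call was an adjusted p below 0.05. A fold of at least 1.5 was counted separately. A two-sided exact permutation test over the 6 libraries was run for single values. Scripts were tested on simulated data. Alternatives were pseudocounts of 5 and 0.5, no filter, a minimum of 50, quantile normalization, rescaling on genes with a mean of at least 100, a replicate block, library weights by group, edgeR 4.0.16 and DESeq2 1.42.0 on recovered reads, and each library left out. Levels per kilobase used GENCODE 29 exon lengths, and promoters came from RefSeq.

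The genes and lists were chosen with earlier results of these data known. Named genes were the listed pathway genes, RNF25, ELOB, ELOC, CUL2, RBX1, EGLN3, EP300 and CREBBP, up to 4 genes per list and direction with the largest change past both criteria, the 3 genes most like VHL, HIF1A and EPAS1, and genes overlapping a listed gene. OS9, LDHA, P4HTM, KDM4A and the cell type markers were named after their values were seen.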

Additional observations from a re-analysis of the deposited data

How the results depend on the processing

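The replicate numbers do not pair the samples, since the deviations of same-numbered libraries from their group means correlated at -0.0638, -0.0874 and 0.0471, and no shControl library correlated best with its own number. With the replicate number as a block, HIF1AN had an adjusted p of 0.110 and 0 pathway genes were higher. The higher count was also 0 with no filter (HIF1AN adjusted p = 0.0765) and with library weights by group (0.0525), and it was 0 to 1 when each library was left out. The lower count was 0 to 2 over left-out libraries, with 2 without shControl 1 (against 17.85% of all genes), and 0 under every other setting tried. HIF target genes numbered 14 to 19 lower over the 16 settings, against 5.01% to 17.85% of all genes. Under quantile normalization 2 were higher, against 10.53% of all genes.

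Signs turned for genes near 0. Under quantile normalization the log2 fold change was 0.0488 for VHL, 0.0176 for HIF1A, -0.0445 for EGLN2 and 0.0521 for ELOC, and under rescaling it was 0.0226 for VHL and 0.00742 for ELOC. With edgeR and DESeq2, CITED2 was at -0.0105 and -0.0313 and ELOB at -0.00289 and -0.0194. Over left-out libraries VHL ranged from -0.155 to 0.0132, HIF1A from -0.446 to 0.0805, EGLN2 from -0.103 to 0.192, CITED2 from -0.260 to 0.176, ELOB from -0.267 to 0.382 and RBX1 from -0.167 to 0.280. The log2 difference of the EPAS1 to HIF1A ratio, -0.05 with all libraries, ranged from -0.34 to 0.12. The cause was not tested. EGLN3 passed with library weights (adjusted p = 0.0371), DESeq2 (0.0283) and without shControl 1 (0.00229). Rescaling moved the higher share of all calls from 49.4% to 58.8%. With 60 to 107 reads per library, the 95% interval of EGLN2 ran from -0.41 to 0.53.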
